A study of Solanum lycopersicum with 8 samples.

Results

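Among the 34688 tomato genes with deposited expression values, 37 were nearly silent in mock-treated seedlings and had fragments in every library of Torin2-treated seedlings. A gene belonged to this set when its mean over 4 mock libraries was at most 0.5 FPKM (a count of fragments divided by gene length and sequencing depth), when its mean over 4 Torin2 libraries was at least 1.5 FPKM and at least 4 times the mock mean, and when its lowest Torin2 value lay above its highest mock value. Of the 25571 genes above 0 in any library, 5893 had a mock mean of at most 0.5 FPKM, 53 of these reached the Torin2 minimum, 47 also reached the ratio, and 39 showed no overlap. The rule set 3 genes aside, of which 2 had met these thresholds. All libraries came from entire seedlings of wild-type (WT) Micro-Tom, a dwarf tomato cultivar, 10 days old and grown at 25 °C. The Torin2 group received 5 μM Torin2 and the mock group 0.1% DMSO, the solvent, with 4 biological replicates each, and the study's text gives 2 h as the time of treatment.

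The kinase TOR (target of rapamycin) integrates nutrient and energy signals in plants. It promotes growth processes such as translation, and restrains recycling and stress programmes. Torin2 occupies the ATP site of the kinase and blocks its activity. Genes that are almost silent in unstressed seedlings commonly belong to inducible programmes, for example defence, wounding, specialised metabolism or development of single organs, and their transcripts accumulate only in particular cells or after a stimulus. In RNA from entire seedlings, more cells with a transcript and more transcript per cell cannot be told apart.

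The members were chosen on their Torin2 and mock values, so that their levels and fold changes are a description and carry no test. The libraries were alike in depth, between 36989257 and 39868131 fragments. Libraries within a treatment did not all resemble each other. The first principal component of the deviations from the treatment means held 53.6% of their variance and set Torin2 replicates 2 and 4 with mock replicates 1 and 2 on a first side, and Torin2 replicates 1 and 3 with mock replicates 3 and 4 on a second side. The labels name no batch. As a check of the tissue, 3 genes of the small subunit of Rubisco, the carbon-fixing enzyme of leaves, were abundant in every library but not alike. Solyc02g063150.3 lay between 3424 and 4735 FPKM in Torin2 and between 7967 and 9521 FPKM in mock libraries, without overlap. Solyc03g034220.3 lay between 8604 and 16106 FPKM in Torin2 and between 11964 and 20682 FPKM in mock libraries. Within each treatment Solyc03g034220.3 was higher on the second side. Solyc02g085950.5 lay between 633 and 1572 FPKM in Torin2 and between 791 and 3284 FPKM in mock libraries. That gene was instead higher on the first side within each treatment. Among mock libraries only, Solyc02g063150.3 was higher on the second side. The part of these differences in the members' values was not tested. The root markers *IRT1* and *NRT2.1* stayed at or below 0.0799 FPKM in Torin2 and 0.119 FPKM in mock libraries, so that root RNA was not shown by them in either group.

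Together the 37 genes held 5523, 4869, 4480 and 5845 fragments in Torin2 replicates 1 to 4, against 510, 509, 344 and 471 fragments in mock replicates 1 to 4. Each Torin2 library thus held several times as many as any mock library. The rule let no member be at 0 in a Torin2 library. Of the 148 mock values 15 were 0, spread over 10 members. In mock seedlings 20 members had at least 1 library under 3 fragments, the level taken as the limit of detection, and 3 members were under it in all 4. Such limits, and the counting intervals given for ratios, hold no more than counting error. The intervals pool the fragments of a treatment and leave out the spread between its libraries. PCR copies were also not told apart from molecules. The highest mock value of any member was 1.09 FPKM, in replicate 1 for the cotton fiber protein gene Solyc11g008600.1, and the lowest Torin2 value was 0.0944 FPKM, or 2 fragments, in replicate 3 for the B12D gene Solyc02g089140.3.

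**Figure D1:**
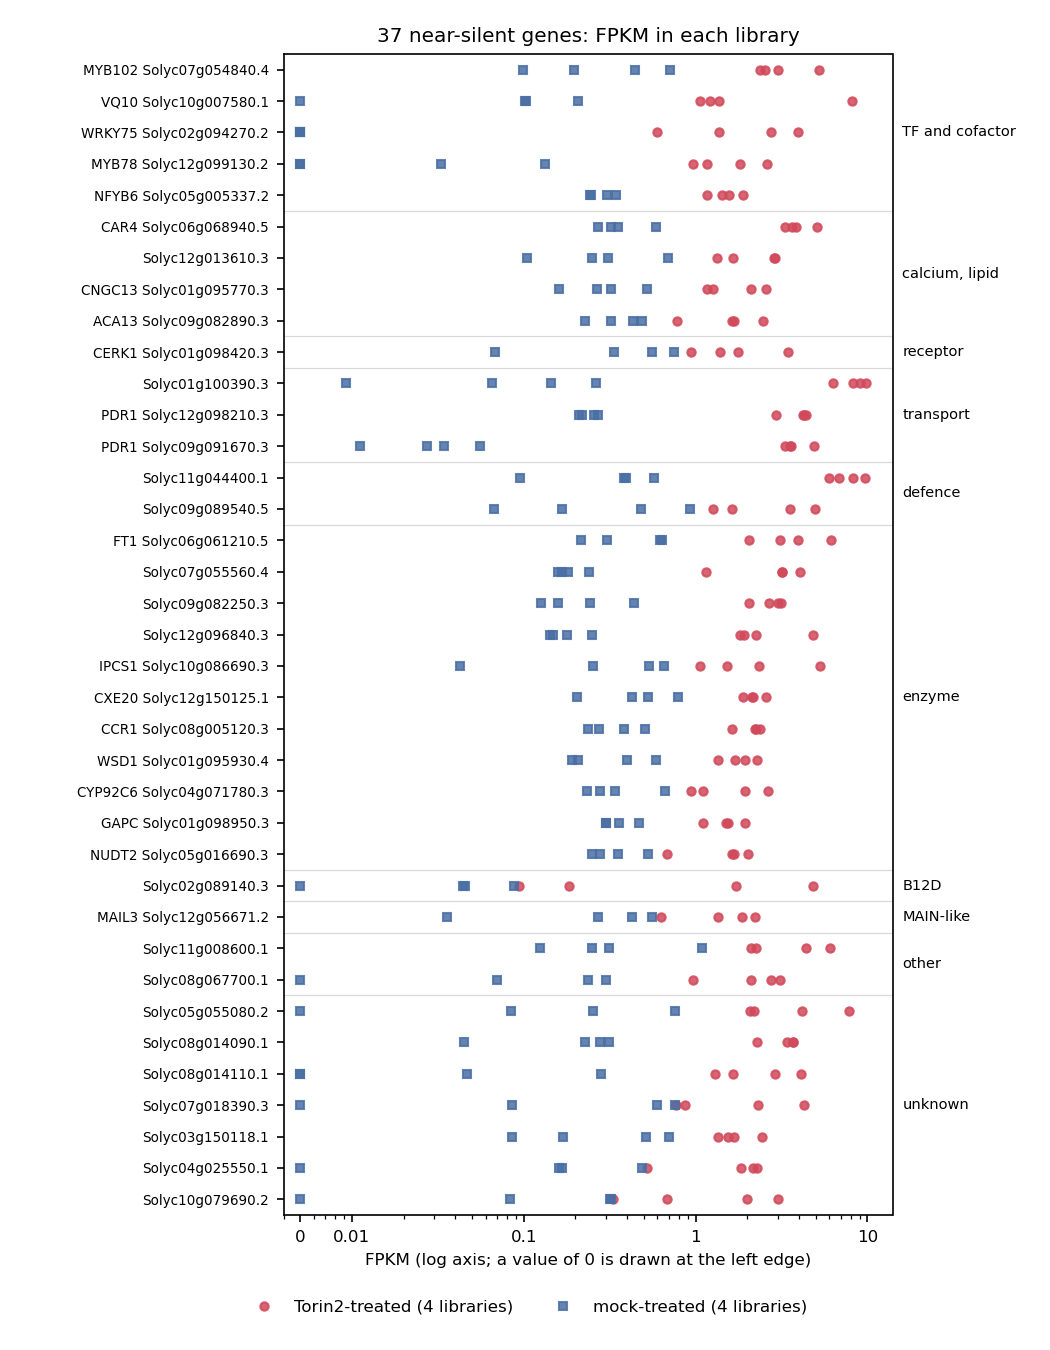
FPKM of the 37 members in each library on a log axis, with Torin2 libraries as red circles and mock libraries as blue squares, ordered by functional group and within a group by Torin2 mean. A value of 0 is drawn at the left edge, and the red and blue marks of a gene never cross, as the rule required, although they nearly touch in 4 genes.

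Even in Torin2-treated seedlings these remained weakly expressed genes. Their Torin2 means ran from 1.51 to 8.36 FPKM with a median of 2.19 FPKM, and their mock means from 0 to 0.487 FPKM with a median of 0.325 FPKM. Over the 22330 genes that averaged 0.1 FPKM or more and were tested with limma, the median was 7.38 FPKM in Torin2 and 6.21 FPKM in mock libraries. A Torin2 mean below the median member was seen in 25.9% of the genes tested, and 53.1% were below the highest member. Only 3 members reached 4 FPKM, a further 7 lay between 3 and 4 FPKM, 13 between 2 and 3 FPKM, and 14 were under 2 FPKM.

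On the log2(FPKM + 0.1) scale the members' fold changes had a median of 2.66 and ran from 1.78 to 5.38, beside a median of 0.16 over all genes tested. All 37 passed the filter on low values, and all 37 had an adjusted p under 0.05 and a log2 fold change over 1 in limma with Benjamini-Hochberg adjustment. Over all genes tested 5.31% were called higher in this way, and 11.4% had every Torin2 library above every mock library. Since the rule used the same contrast, nothing is read from the members' count. Inside the first side of libraries the members' median was 2.57 and inside the second 2.80, and each member exceeded 1 in both sides, with 1.41 as the lowest value, in *NUDT2*. The rule had already fixed a positive sign inside each side, so that these values are a description and no check.

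**Figure D2:**
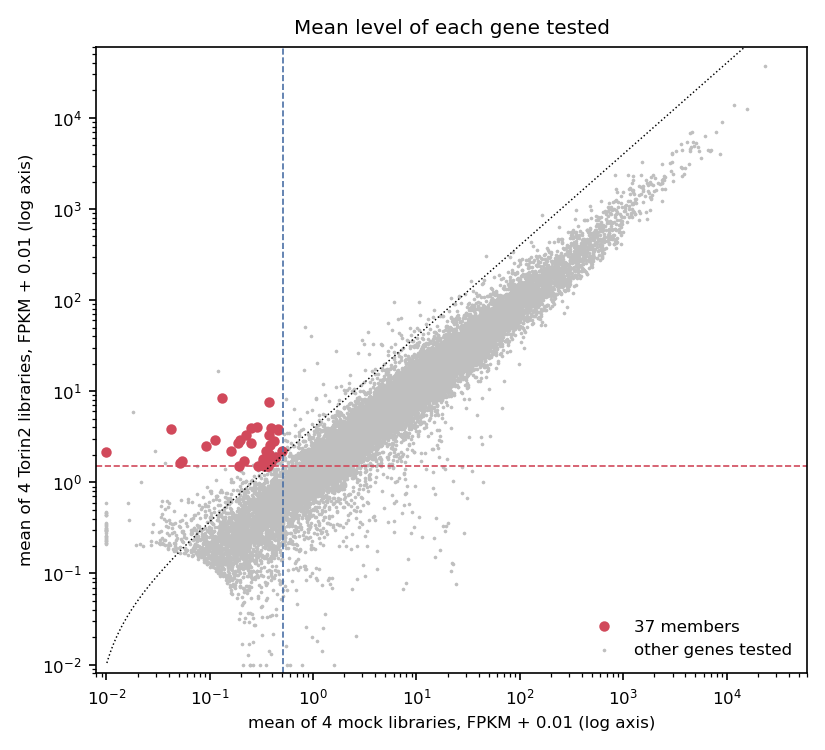
Mean FPKM over 4 Torin2 libraries (vertical) against mean FPKM over 4 mock libraries (horizontal) for the genes tested, both on log axes after adding 0.01, with the 37 members in red and the other genes in grey. The dashed lines stand at 1.5 and 0.5 FPKM and the dotted curve at a ratio of 4, and the grey points that lie past all of them are genes whose libraries overlap or that the rule set aside.

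The thresholds cut through a continuous range. *NUDT2* was just inside with a Torin2 mean of 1.51 FPKM, and the ethylene-responsive transcription factor gene *ERF095* (Solyc03g005500.1) was just outside with 1.49 FPKM, against 0.0645 FPKM in mock. On the mock side *CXE20* was inside at 0.487 FPKM and a RuvB-like helicase gene (Solyc10g162790.1) outside at 0.511 FPKM. A wound-responsive family gene (Solyc07g054750.1) missed by the same criterion with 8.19 FPKM in Torin2 and 0.538 FPKM in mock libraries. The early nodulin-93 gene Solyc12g006560.3 averaged 2.20 FPKM in Torin2 and 0.0192 FPKM in mock libraries but was at 0 in 1 Torin2 library. Inside the set, the lowest Torin2 value was more than 5 times the highest mock value in 10 members and more than 2 times in 23, while in 4 members it was less than 1.1 times. In the opposite direction, 67 genes met the mirror image of the rule.

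Transcription factors and a cofactor made up 5 of the 37 members, with a median log2 fold change of 3.46. Solyc02g094270.2, a WRKY DNA-binding protein named *WRKY75*, was the only member with no fragment in any mock library. WRKY factors bind W-box elements of defence genes, and WRKY75 is known in Arabidopsis from phosphate starvation and leaf senescence. Its levels were 3.95, 0.595, 2.73 and 1.37 FPKM in Torin2 replicates 1 to 4, against 0 FPKM in all 4 mock libraries. Replicates 1 and 3 were the high ones. The gene held 132 fragments in Torin2 and 0 in mock libraries, and its Torin2 mean of 2.16 ± 1.48 FPKM (SD, n = 4) was at least 11.2-fold higher than the 0.193 FPKM that 3 fragments per mock library would give. Its fitted log2 fold change of 4.21 ± 0.49 (SE) depends on the 0.1 FPKM added before taking logs. At the bound of 3.49 in its place, the medians of this group and of all members were the same.

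The R2R3-MYB gene *MYB78* (Solyc12g099130.2, R2R3MYB transcription factor 108) had 2.61, 0.970, 1.83 and 1.16 FPKM in Torin2 libraries, against 0, 0, 0.0332 and 0.134 FPKM in mock libraries. Its Arabidopsis relative MYB108 acts in jasmonate-dependent stamen maturation and in responses to Botrytis. The gene had 191 fragments in Torin2 against 5 in mock libraries, a ratio per depth of 39.1 with a 95% counting interval of 16.5 to 122. A further R2R3-MYB gene, *MYB102* (Solyc07g054840.4, R2R3MYB transcription factor 41), belongs to a subgroup linked in Arabidopsis to suberin and to osmotic stress and wounding. It had 3.0, 2.55, 5.25 and 2.39 FPKM in Torin2 libraries, against 0.712, 0.445, 0.196 and 0.0986 FPKM in mock libraries. The lowest Torin2 value of *MYB102* was more than 3 times its highest mock value, and its log2 fold change was 3.01 ± 0.43 (SE).

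VQ proteins carry a short motif through which they bind WRKY factors. *VQ10* (Solyc10g007580.1) had 8.10, 1.06, 1.21 and 1.36 FPKM in Torin2 libraries, against 0, 0.206, 0.102 and 0.103 FPKM in mock libraries. Torin2 replicate 1 alone gave 79 of its 113 Torin2 fragments, against 4 fragments in the mock libraries together, and the ratio per depth of 28.9 had a counting interval of 11 to 108. *NFYB6* (Solyc05g005337.2) encodes a subunit B of nuclear factor Y, a trimer that binds CCAAT boxes, and in Arabidopsis the B-9 subunit in its description is LEC1, a regulator of embryo development. It had 1.43, 1.89, 1.16 and 1.56 FPKM in Torin2 libraries, against 0.305, 0.346, 0.244 and 0.246 FPKM in mock libraries. *NFYB6* was among the most even members, with a log2 fold change of 2.05 ± 0.33 (SE).

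The families of these regulators could be followed only through the authors' list of changed genes, of which 1997 entries could be read. That list was chosen on these samples, so that its counts are not independent evidence of a direction. Each entry had already been called changed by the authors, who report somewhat more lowered than raised genes. The share of higher genes by the limma cut-offs over the whole list was not counted. No direction of a family is therefore read from the counts given here and below. Besides the member, 4 of 6 other WRKY entries were higher and 2 lower by the limma cut-offs, including another gene named *WRKY75* (Solyc05g015850.5) with 25.1 FPKM in Torin2 and 5.31 FPKM in mock libraries. All 5 other VQ entries were higher, with *VQ22* (Solyc02g068460.1) at 38.0 FPKM in Torin2 and 7.21 FPKM in mock libraries. Of 6 other R2R3-MYB entries 4 were higher and 1 lower. Some of these calls depended on the scaling: 3 other WRKY entries were higher after TPM, median-of-ratios or quantile scaling, 4 other VQ entries after quantile scaling, and 3 other R2R3-MYB entries after TPM scaling. The remaining NF-YB entry, *NFYB5* (Solyc06g009010.1), had 0.407 FPKM in Torin2 and 0.0238 FPKM in mock libraries and did not pass (limma adjusted p = 0.153).

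The 3 transporters had the largest median log2 fold change of the groups, 4.89. The gene with the highest Torin2 level of the set was Solyc01g100390.3, annotated as a pyrophosphate-energized proton pump of the vacuolar membrane, an enzyme that uses the energy of pyrophosphate to acidify the vacuole. It had 8.22, 9.09, 6.27 and 9.86 FPKM in Torin2 libraries, against 0.145, 0.263, 0.00930 and 0.0656 FPKM in mock libraries. These values stand for 3473 fragments in Torin2 and 51 in mock libraries. The means were 8.36 ± 1.55 and 0.121 ± 0.110 FPKM (SD, n = 4 each), a ratio of 69.2, and the log2 fold change was 5.38 ± 0.38 (SE).

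Both genes named *PDR1* encode pleiotropic drug resistance proteins, ABC transporters of the plasma membrane that export hormones and specialised metabolites such as terpenoids. Solyc09g091670.3 had 3.54, 3.61, 3.30 and 4.88 FPKM in Torin2 libraries, against 0.0343, 0.0111, 0.0275 and 0.0554 FPKM in mock libraries. With 2690 fragments in Torin2 and 23 in mock libraries, its ratio of means of 119 was the highest that could be formed in the set. Solyc12g098210.3 had a similar Torin2 level and a higher mock level. Its values were 4.37, 4.21, 2.96 and 4.25 FPKM in Torin2 libraries, against 0.256, 0.219, 0.211 and 0.272 FPKM in mock libraries. The log2 fold changes of these genes were 4.89 ± 0.33 and 3.56 ± 0.30 (SE). Of the 4 other PDR entries in the authors' list 3 were higher, for example Solyc05g053610.2 with 8.17 FPKM in Torin2 and 2.74 FPKM in mock libraries, and none was lower. Of these 4 entries 2 were higher after removal of the trend with gene length. Near-identical copies can share reads, and whether PDR genes did so was not examined.

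In the defence group, Solyc11g044400.1 is described as a pathogenesis-related thaumatin family protein. Thaumatin-like and osmotin proteins form the PR-5 class, many of which act against fungi. The gene had 9.65, 6.84, 8.29 and 5.95 FPKM in Torin2 libraries, against 0.395, 0.384, 0.570 and 0.0957 FPKM in mock libraries. Its gene model spans only 264 bp, so that the mean of 7.68 FPKM rested on 312 fragments in Torin2 and the mean of 0.361 FPKM on 15 fragments in mock libraries. The lowest Torin2 value was more than 10 times the highest mock value, and the log2 fold change was 4.18 ± 0.37 (SE). The rule chose members on such values, so that they do not offset the small counts. The proteinase inhibitor gene Solyc09g089540.5 belongs to proteins that block digestive proteases of herbivores and accumulate after wounding in tomato. Its means were 2.84 ± 1.71 FPKM in Torin2 and 0.411 ± 0.387 FPKM in mock libraries (SD, n = 4 each), with a large spread in both groups. Of the other 4 proteinase inhibitor entries 3 were higher, among them *KTI5* (Solyc06g072230.1) with 49.7 FPKM in Torin2 and 10.1 FPKM in mock libraries. After median-of-ratios scaling 2 of these 4 entries were higher.

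Calcium signalling and membrane binding were represented by 4 members with log2 fold changes from 1.83 to 3.09. Calcium enters the cytosol through channels such as cyclic nucleotide-gated channels and is removed by ATPases, and proteins with C2 or calmodulin-binding domains respond to it. *CAR4* (Solyc06g068940.5), a calcium-dependent lipid-binding protein whose Arabidopsis relatives carry abscisic acid receptors to membranes, had means of 3.97 ± 0.777 FPKM in Torin2 and 0.384 ± 0.140 FPKM in mock libraries (SD, n = 4 each). The calmodulin-binding DUF1645 gene Solyc12g013610.3 averaged 2.18 FPKM in Torin2 and 0.338 FPKM in mock libraries. The channel gene *CNGC13* (Solyc01g095770.3) averaged 1.78 FPKM in Torin2 and 0.318 FPKM in mock libraries. The calcium-transporting ATPase gene *ACA13* (Solyc09g082890.3) averaged 1.64 FPKM in Torin2 and 0.367 FPKM in mock libraries. Both were low but well counted, with 640 fragments in Torin2 and 117 in mock libraries for *CNGC13* and 780 in Torin2 and 177 in mock libraries for *ACA13*. In the authors' list, 2 of 2 other channel entries, 2 of 2 other calcium ATPase entries and 3 of 3 other C2 entries were higher in limma, for example *SYT3* (Solyc09g007860.4) with 6.15 FPKM in Torin2 and 0.963 FPKM in mock libraries. After TPM scaling the 3 other C2 entries still passed, whereas 0 of the 2 channel and 0 of the 2 ATPase entries did. Of the 2 ATPase entries, 0 passed after removal of the trend with gene length and 1 after quantile normalization.

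*CERK1* (Solyc01g098420.3) was the only receptor. CERK1 proteins are LysM receptor kinases that perceive chitin of fungal walls. The gene averaged 1.89 ± 1.1 FPKM in Torin2 and 0.428 ± 0.293 FPKM in mock libraries (SD, n = 4 each). Its model is 372 bp long, too short for a whole receptor kinase, and 109 fragments in Torin2 and 25 in mock libraries support it. The gene listed before it, *LYK3* (Solyc01g098410.4, described as Lyk13), was also higher, with 6.68 FPKM in Torin2 and 2.75 FPKM in mock libraries (log2 fold change 1.20 ± 0.31 SE, limma adjusted p = 0.0201). This call was lost after TPM scaling (limma adjusted p = 0.067) and after quantile normalization, where the log2 fold change was 0.96.

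Enzymes formed the largest group, with 11 members and log2 fold changes from 1.78 to 3.27 (median 2.32). Cytochrome P450 enzymes oxidise hormones and specialised metabolites. Solyc07g055560.4, described as a cytochrome, averaged 2.90 FPKM in Torin2 and 0.187 FPKM in mock libraries, with 1072 fragments against 70, and *CYP92C6* (Solyc04g071780.3) averaged 1.65 FPKM in Torin2 and 0.378 FPKM in mock libraries. Among the 34 other cytochrome P450 entries of the authors' list 14 were higher and 12 lower, and after removal of the trend with gene length 13 were higher and 17 lower. Of the 18 other alpha/beta-hydrolase entries tested, beside the member *CXE20* (Solyc12g150125.1, 2.19 FPKM in Torin2 and 0.487 FPKM in mock libraries), 9 were higher and 7 lower, which became 8 and 8 after median-of-ratios scaling and 7 and 7 after quantile normalization.

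Several enzymes act on walls and lipids. *FT1* (Solyc06g061210.5, fucosyltransferase 2), of a family that adds fucose to wall xyloglucan, was the highest enzyme with 3.81 ± 1.74 FPKM in Torin2 and 0.446 ± 0.217 FPKM in mock libraries (SD, n = 4 each). *CCR1* (Solyc08g005120.3), described as a Rossmann-fold protein and named like cinnamoyl-CoA reductase of lignin synthesis, averaged 2.12 FPKM in Torin2 and 0.351 FPKM in mock libraries. *WSD1* (Solyc01g095930.4), whose Arabidopsis namesake makes wax esters of the cuticle, averaged 1.82 FPKM in Torin2 and 0.347 FPKM in mock libraries. *IPCS1* (Solyc10g086690.3), which transfers phosphoinositol to ceramide in sphingolipid synthesis, averaged 2.55 ± 1.89 FPKM in Torin2 and 0.371 ± 0.277 FPKM in mock libraries (SD, n = 4 each). The spread of *IPCS1* came with its replicate 4, where 244 of its 467 Torin2 fragments lay.

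Both members described as N-acetyltransferases, enzymes that pass an acetyl group to amines or proteins, had nearly the same levels. Solyc09g082250.3 averaged 2.71 ± 0.491 FPKM in Torin2 and 0.242 ± 0.140 FPKM in mock libraries, and Solyc12g096840.3 averaged 2.70 ± 1.42 FPKM in Torin2 and 0.180 ± 0.0502 FPKM in mock libraries (SD, n = 4 each). They were the only N-acetyltransferase entries found in the authors' list, and whether they share reads was not examined. *GAPC* (Solyc01g098950.3), a cytosolic glyceraldehyde-3-phosphate dehydrogenase of glycolysis, averaged 1.52 FPKM in Torin2 and 0.358 FPKM in mock libraries. *NUDT2* (Solyc05g016690.3), a Nudix hydrolase of the type that cleaves nucleoside diphosphate derivatives, averaged 1.51 FPKM in Torin2 and 0.352 FPKM in mock libraries.

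The remaining described members were single genes. The B12D gene Solyc02g089140.3 encodes a small protein of a family first found in cereal seeds. It was the most uneven member, with 1.72, 0.183, 0.0944 and 4.85 FPKM in Torin2 libraries, against 0.0455, 0.0443, 0.0875 and 0 FPKM in mock libraries, values given because of this spread and not by the rule for named genes. Torin2 replicates 1 and 4 held 39 and 108 of its 153 Torin2 fragments, and replicates 2 and 3 were close to the mock libraries, so that its place in the set rests on 2 libraries. The counts gave a ratio per depth of 39.1 with a counting interval of 15 to 145, which leaves out the spread between libraries. *MAIL3* (Solyc12g056671.2) is described as a serine/threonine-protein phosphatase 7 long form-like protein. It is named like the MAIN-like proteins that keep meristem genomes stable in Arabidopsis. *MAIL3* averaged 1.52 FPKM in Torin2 and 0.325 FPKM in mock libraries. The cotton fiber protein gene Solyc11g008600.1 averaged 3.71 ± 1.90 FPKM in Torin2 and 0.445 ± 0.440 FPKM in mock libraries (SD, n = 4 each). Solyc08g067700.1, described as photosystem II protein D2, averaged 2.22 FPKM in Torin2 and 0.152 FPKM in mock libraries. D2 is a reaction centre protein encoded in the plastid genome, and reads of a copy in the nucleus cannot be separated here from those of the plastid gene, so that this value is uncertain.

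No function was known for 7 members. Solyc05g055080.2 was among the 3 highest of the set with 7.84, 2.19, 4.16 and 2.07 FPKM in Torin2 libraries, against 0, 0.764, 0.0839 and 0.253 FPKM in mock libraries. Its mean of 4.06 FPKM in Torin2 and of 0.275 FPKM in mock libraries came from 188 and 13 fragments on a model of 299 bp. All 7 had models shorter than 600 bp, with a median of 299 bp. In the whole set 14 members (37.8%) were shorter than this, against 14.7% of the genes tested, and the median length was 757 bp in the members and 1384 bp in all genes tested. At the same FPKM a short gene holds fewer fragments, so that its value is less precise.

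Solyc08g014090.1 and Solyc08g014110.1, both without a known function, were the only members that lay within 5 listed genes of each other. Solyc08g014090.1 had 3.42, 2.29, 3.71 and 3.67 FPKM in Torin2 libraries, against 0.279, 0.226, 0.0447 and 0.315 FPKM in mock libraries. Solyc08g014110.1 had 4.13, 1.30, 2.89 and 1.66 FPKM in Torin2 libraries, against 0, 0.280, 0 and 0.0465 FPKM in mock libraries. Both were lowest in Torin2 replicate 2, while replicate 4 was among the high libraries for the first and low for the second. The log2 fold changes were 3.5 ± 0.38 for Solyc08g014090.1 and 3.94 ± 0.49 for Solyc08g014110.1 (SE). For the second, 209 fragments in Torin2 and 7 in mock libraries gave a ratio per depth of 30.5 with a counting interval of 14.6 to 76.9. The other members without a function averaged between 1.51 FPKM, in Solyc10g079690.2, and 2.06 FPKM, in Solyc07g018390.3, in Torin2 libraries. In Solyc07g018390.3 the lowest Torin2 value, 0.767 FPKM, was only just above the highest mock value, 0.763 FPKM, and in Solyc10g079690.2 these values were 0.332 and 0.322 FPKM.

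The rule used the mean and the lowest value of the Torin2 libraries, so that the spread and order of these libraries were in part selected on and are given as a description. The coefficient of variation over the 4 Torin2 libraries had a median of 42.5% in the members and ran from 12.9% in *CXE20* to 130% in the B12D gene, beside a median of 31.1% over the 7178 genes tested with Torin2 means in the members' range. It exceeded 60% in 8 members and was below 20% in 7. Those 7178 genes were longer, with a median of 1682 bp against 757 bp in the members. The part of gene length in the difference in variation was not tested. In 12 members (32.4%) Torin2 replicates 1 and 3 were both above replicates 2 and 4, an order that 16.8% of all genes tested and 11.1% of those at the members' levels had. This group held *WRKY75*, *MYB78*, *MYB102*, the thaumatin gene, *FT1* and the DUF1645 gene. In 10 members (27%), among them the proton pump gene, *PDR1* Solyc09g091670.3, *CNGC13*, *ACA13* and *NFYB6*, replicates 2 and 4 were both above 1 and 3, which held for 58.1% of all genes tested and 68.9% at the members' levels. Replicates 1 and 3 are the Torin2 libraries of the second side, and replicates 2 and 4 those of the first side. Gene length moved with the order, with a median of 720 bp in the 12 members and 2034 bp in the 10 members, beside 694 bp and 1763 bp over all genes tested with these orders. The part of gene length in the order was not tested. The remaining 15 members had other orders.

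**Figure D3:**
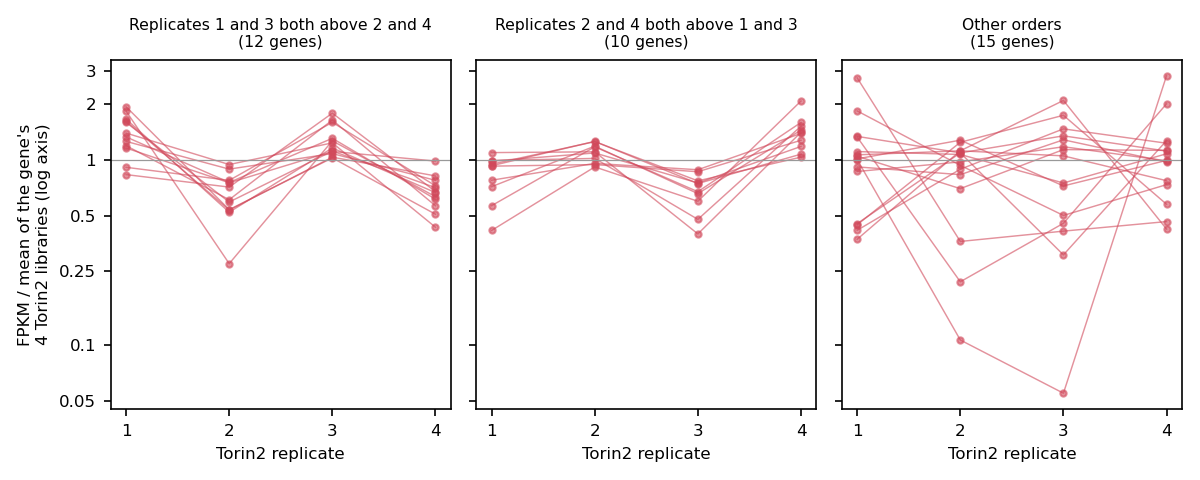
FPKM of each member in Torin2 replicates 1 to 4 divided by the mean of its 4 Torin2 libraries, on a log axis, with 1 line per gene. The 12 genes on the left peak in replicates 1 and 3, the 10 in the middle in replicates 2 and 4, and the 15 on the right in other orders, with the B12D gene reaching lowest.

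Replicate 1 held the highest Torin2 value for 13 members, replicate 3 and replicate 4 for 10 each, and replicate 2 for 4. Over all genes tested, replicate 1 was the highest in 15.9%, replicate 2 in 45.4%, replicate 3 in 12.1% and replicate 4 in 26.5%. Leaving out Torin2 replicate 1 took *CERK1*, *VQ10*, Solyc10g079690.2 and *MYB78* out of the set, while the B12D gene, *CYP92C6*, *NFYB6*, *NUDT2*, *ACA13*, Solyc10g079690.2 and *MAIL3* no longer met the rule without replicate 4. Under TPM, median-of-ratios and quantile scaling and with every library left out in turn, 19 members met the rule. The rule was not applied after removal of the length trend. The other 18 missed it at least once.

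The members lay on all 12 chromosomes, from 1 on chromosome 3 to 6 on chromosome 12. For the 35 members whose identifier gives a place in the order of listed genes, the 5 genes listed on each side were examined, 342 genes in all. Of these 52 were at 0 in every library and 246 were tested, of which 28 were higher (11.4%) and 13 lower by the limma cut-offs, beside 5.31% higher and 3.0% lower among all genes tested. The balance of the neighbours changed with the scaling. After median-of-ratios scaling 19 were higher and 20 lower, after quantile normalization 16 and 19, after removal of the trend with gene length 18 and 18, and after TPM scaling 19 and 9. The share of higher neighbours stayed above the share among all genes tested under each of these scalings. It was 7.72% against 3.43% after median-of-ratios scaling, and 7.32% against 3.57% after removal of the length trend. The share of lower neighbours, too, was above that among all genes tested under each scaling. After median-of-ratios scaling 20 of 246 neighbours were lower, against 1011 of 22339 genes tested. After removal of the length trend these counts were 18 of 246 and 892 of 22330. Neither difference was tested. As deposited, the neighbours' median log2 fold change was 0.13, near the 0.16 of all genes. Of the 35 members placed, 18 had at least 1 neighbour outside the set that was higher as deposited. The share of all genes with such a neighbour was not counted, so that nothing is read from this count.

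**Figure D4:**
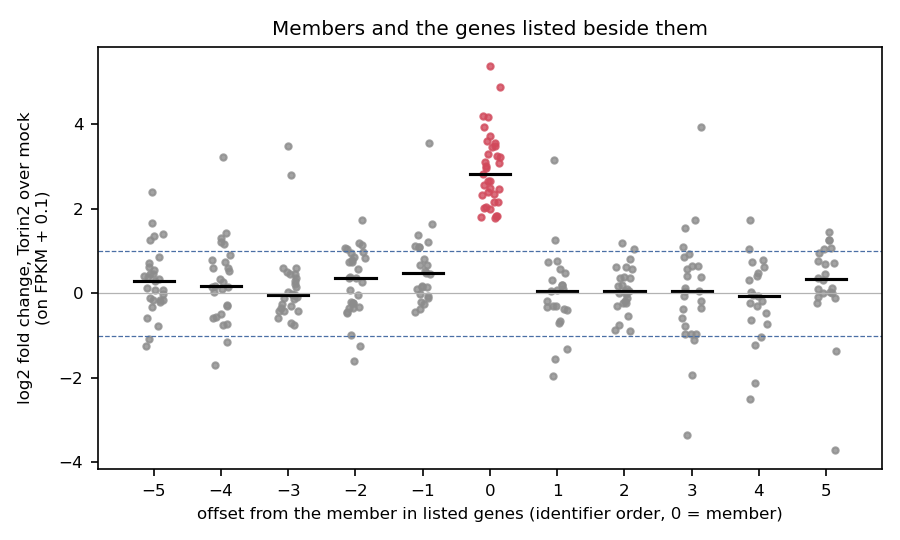
Log2 fold change of Torin2 over mock, on FPKM + 0.1, for the 35 members placed by identifier (red, offset 0) and for the tested genes listed up to 5 places before or after them (grey). Black bars are medians, the dashed lines mark fold change cut-offs of 1 and -1, and the medians of the grey columns stay within these lines.

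Some neighbours were themselves strongly changed. Next to the DUF1645 gene Solyc12g013610.3, *JA2* (Solyc12g013620.2), a NAC factor of jasmonate and abscisic acid responses in tomato, had 26.4 FPKM in Torin2 and 2.72 FPKM in mock libraries (log2 fold change 3.15 ± 0.35 SE, limma adjusted p = 4.44e-05). Next to the thaumatin gene, the osmotin-like gene *TPM-1* (Solyc11g044390.1) had 6.39 FPKM in Torin2 and 0.638 FPKM in mock libraries (3.56 ± 0.62 SE, limma adjusted p = 0.00196). Both of these PR-5 genes lie side by side on chromosome 11. A further *ACA13* gene (Solyc09g082870.3) beside the member of that name had 0.870 FPKM in Torin2 and 0.286 FPKM in mock libraries (1.38 ± 0.38 SE, limma adjusted p = 0.0273), a call lost after TPM scaling and after removal of the trend with gene length. A wound-responsive gene (Solyc07g054790.1) near *MYB102* had 55.4 FPKM in Torin2 and 5.27 FPKM in mock libraries (3.23 ± 0.56 SE, limma adjusted p = 0.0020). Beside *IPCS1*, the small heat shock gene *HSP18.1* (Solyc10g086680.1) had 0.496 FPKM in Torin2 and 0.0724 FPKM in mock libraries (1.63 ± 0.49 SE, limma adjusted p = 0.0413), a call lost after TPM scaling and quantile normalization. The opposite was seen near *PDR1* Solyc12g098210.3, where Solyc12g098230.2, Solyc12g098240.1 and Solyc12g098250.1 fell by 3.35, 2.50 and 3.71 on the log2 scale. Solyc12g098230.2, for example, had 0.892 FPKM in Torin2 and 9.68 FPKM in mock libraries (limma adjusted p = 1.6e-05).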

How the data were processed

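RNA of entire seedlings was sequenced from 4 Torin2-treated and 4 mock-treated replicates, which the study describes as biological replicates. For the authors, HISAT2 placed paired reads on the SL4.0 assembly of tomato, and the FPKM values that they deposited are already divided by gene length and depth. Their processing notes also name fastp, FastQC, SAMtools, HTSeq and DESeq2, and the study's methods name edgeR for the authors' own calls, whose fold changes and p-values were not used here, while the list of called genes served to find descriptions and family members. The tool that made the FPKM values and the annotation release are not given in the sources used here. Of the per-sample columns, 0 were left unused.

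The members and lists were chosen with earlier results of these data known. Functions are the descriptions in the authors' table of changed genes, of which only names and descriptions were read, and these put the members into groups by keyword. Each value was turned back into whole fragments (all 25571 genes above 0, tolerance 0.005, totals between 99.73% and 99.82% of the depth), which also gave the gene lengths. Expression was fitted with limma 3.58.1 in R 4.3.3 on log2(FPKM + 0.1), with eBayes and its trend option, for the 22330 genes averaging 0.1 FPKM or more, with Benjamini-Hochberg adjustment over all of them. A call needed an adjusted p under 0.05 and a log2 fold change beyond 1 in size. The code was tested on simulated data. Ratios of counts have exact 95% intervals for counting error.

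Values per library are given for members with a Torin2 mean of at least 4 FPKM, the 10 with the largest fold change, members beside another member and the transcription factors. Other members are given by their means. Alternatives were other thresholds, pseudocounts, filters and scalings, the replicate number as a block, limma-voom on the recovered fragments, a correction for the dependence on gene length in each library (lowess, span 0.3), each library left out, and, added after seeing the data, each side of the libraries alone. Promoter motifs were planned but not analysed here, and no sequence was used. Python 3.11.15 with pandas 2.3.3, numpy 2.4.6, scipy 1.17.1 and matplotlib 3.10.9 produced the tables and plots.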

Additional observations from a re-analysis of the deposited data

Results flagged for a closer look

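In 4 of the 73 sets of 4 libraries, 1 library lay far from the other 3 on the log2 scale, measured by its gap to the nearest one over the whole range (Dixon's ratio). For unselected, normally distributed values chance flags about 1 in 20 sets, or 3.65 here. The members' values were selected by the rule and some are small counts, so that this rate need not hold for them. All 4 sets were Torin2 libraries. *VQ10* (Solyc10g007580.1) had 8.10 FPKM in replicate 1, while the other 3 libraries lay between 1.06 and 1.36 FPKM, a ratio of 0.883. *PDR1* Solyc12g098210.3 had 2.96 FPKM in replicate 3, against 4.21 to 4.37 FPKM, a ratio of 0.907. The gene of unknown function Solyc04g025550.1 had 0.520 FPKM, or 3 fragments, in replicate 3, against 1.84 to 2.26 FPKM, a ratio of 0.854. *CCR1* (Solyc08g005120.3) had 1.63 FPKM in replicate 4, against 2.22 to 2.36 FPKM, a ratio of 0.83.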

How the results depend on the processing

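The set itself depended on the thresholds. It held 15 genes with a mock mean of at most 0.25 FPKM, 10 with a Torin2 mean of at least 3 FPKM and 21 with a ratio of at least 8, and looser settings gave 54 genes with a mock mean of at most 1 FPKM, 48 with a Torin2 mean of at least 1 FPKM and 45 with overlap allowed. Median-of-ratios scaling left 29 genes and quantile normalization 26, and with 1 library left out between 35 and 45 genes, of which 30 to 37 were members. The members' median log2 fold change was 1.30 with a pseudocount of 1 FPKM, 3.42 with 0.01 FPKM, 3.01 over the 29 members with a mean of at least 1 FPKM, 2.44 after quantile normalization, 3.11 from recovered fragments in limma-voom, and 2.71 to 3.08 with 1 library left out.

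Between 28 members (pseudocount of 1 FPKM) and all 37 passed both limma cut-offs under the alternatives, with 34 to 37 when 1 library was left out, 34 in the first and 30 in the second side alone. The filter at a mean of 1 FPKM kept 29 members, which reach it only through their Torin2 values, so that their calls are no check. The choice of members fixes the sign of their fold changes. Of 732 values of single members under these alternatives 689 stayed past the cut-offs and 43 did not, 15 of them in the B12D gene, 10 in Solyc07g018390.3 and 5 in Solyc10g079690.2. Scaling moved the median of all genes from 0.16 as deposited to 0.01 (median-of-ratios) and 0.02 (quantile). Across all genes, the calls of higher and lower genes numbered 1186 and 671 as deposited, 767 and 1011 on median-of-ratios scaling, 733 and 931 on quantile scaling, and 798 and 892 after removal of the length trend. With a pseudocount of 1 FPKM they were 642 and 444.

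The study does not describe the replicate numbers as pairs. Correlations of the deviations of same-numbered libraries were -0.38, 0.38, 0.40 and -0.25, values of mixed sign that cannot decide whether the samples were paired. With the replicate number as a block, all 37 members passed and their median was 2.66, while 1235 genes were higher and 674 lower. Levels of a few fragments per library limit the mock values of most members, and shared reads were not examined.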
